A study of Rattus norvegicus with 4 samples.

Results

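The RNAs described here are the longest small RNAs that were read from rat vascular smooth muscle cells: sequence tags of 36 to 42 nt. A tag is 1 distinct read sequence with its count. The members were chosen by their counts: a tag of 36 to 42 nt with no unread base entered if it had 50 or more reads in at least 1 of the 4 libraries, and 1004 of the 2360012 distinct tags of the series without an unread base did so. The cells were cultured from the aorta of Sprague-Dawley rats in medium with 10% fetal bovine serum, deprived of serum for 48 h, and then left untreated (control) or given 100 nM angiotensin II (Ang II) for 1 h, 3 h or 24 h. Each of these 4 groups is 1 library of small RNA, so no comparison below has a replicate check and no p-value is given. The control carries no time label, so that the effect of Ang II and that of time in culture cannot be told apart. Ang II is the peptide hormone of the renin-angiotensin system, which constricts vessels and drives growth of smooth muscle cells through its type 1 receptor.

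Small-RNA libraries are made to catch microRNAs, which are shorter than these tags, yet they also catch whole or broken pieces of other cellular RNAs. Box C/D small nucleolar RNAs carry a box C near their 5′ end and a box D near their 3′ end, bind fibrillarin, and guide methyl groups to ribosomal RNA. Ribosomal RNA (28S, 18S, 5.8S and 5S) is the bulk of cellular RNA, and pieces of it and of transfer RNA are found in most such libraries. Ligation needs RNA with the right end groups, so the count of a piece speaks at most of that piece and not of how much of the whole RNA there was. How well each piece was ligated and amplified was not measured, so counts of different pieces need not follow their amounts.

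The letters of the members that hold most reads are given first, each by its most read tag, 5′ to 3′ as deposited. In the first 5, which belong to families named box C below, capitals mark the letters TGATG of the box C motif; in the rest no letter is marked.
Largest family, 38-nt form: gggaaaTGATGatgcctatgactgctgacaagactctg
Family 4: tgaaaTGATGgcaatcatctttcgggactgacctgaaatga
Family 9: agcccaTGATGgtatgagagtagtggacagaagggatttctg
Family 10: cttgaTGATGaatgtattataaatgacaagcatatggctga
Family 16: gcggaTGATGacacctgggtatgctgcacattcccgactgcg
5S rRNA, 3′ part: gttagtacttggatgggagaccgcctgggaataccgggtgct
28S rRNA, near the 3′ end: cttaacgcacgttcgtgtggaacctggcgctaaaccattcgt
28S rRNA, 3′ end: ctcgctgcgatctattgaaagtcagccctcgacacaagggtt
5.8S rRNA, 3′ part: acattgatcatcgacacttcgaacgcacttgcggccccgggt
5.8S rRNA, 5′ part: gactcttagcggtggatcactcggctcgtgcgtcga
28S rRNA, inner part a: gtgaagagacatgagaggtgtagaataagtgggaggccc

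Members were grouped in 2 ways. By their first 18 nt they formed 378 groups, of which 232 held 1 tag and the largest 117 tags. Apart from these groups, tags that share any stretch of 20 letters were joined, which gave 164 families, numbered by their reads. A tag with 1 changed letter near its middle can thus stand in a family of its own. The most read tags of families 135 and 139 are such variants of tags of the largest family and of family 14. The count of families is therefore not a count of RNAs. Members of a group or family come from overlapping stretches of 1 RNA or of close copies, so they are not independent. The 12 largest groups held 64.1% of all member reads. Matching to reference sequences named little: 2 members lay whole in a miRNA hairpin and 8 had their first 25 nt in one, among 419 rat hairpins of RefSeq (GRCr8), and 0 lay whole on the sense strand in 33469 RefSeq promoter windows. No genome, rRNA, tRNA or snoRNA sequence was used. A source was given by hand to 55 families, of which 1 is a run of 1 letter. The others are named rRNA, tRNA, mitochondrial or other small RNA here. These names were recognised from their well-known sequences and were not matched by a script. This naming was added after the data were seen.

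Before any result, 3 features of the libraries bear on the long tags. The deposited reads end at 42 nt, so a 42-nt tag gives no 3′ end and its RNA may go on, whereas a tag of 36 to 41 nt ended before that limit. The 3 h library differed from the others in its read ends: of its 222460 reads of 42 nt, 3156 (1.42%) ended in AT, the first 2 letters of the 3′ adapter, while 0 of 275977, 212608 and 258635 reads did so in the control, 1 h and 24 h libraries. Counts of 1 tag length at 3 h are therefore not fully comparable with the others, and sums over a start or a family are given wherever possible. Tags that hold TCGTATGCC, letters of the adapter and of the complement of the reverse transcription primer, were 27 members with 4553, 3549, 1235 and 3400 reads in control, 1 h, 3 h and 24 h. The libraries held 13119417 to 14534892 reads that name a sequence, and all levels are scaled to these totals as RPM, reads per 1000000; 3 reads, the upper limit that a count of 0 allows, are 0.206 to 0.229 RPM. Of the markers looked at for the labelled cell type, miR-143-3p stood at 248107 to 309955 RPM and miR-145-5p at 2216 to 2463 RPM. Among markers of other cells, the endothelial miR-126a-3p stood at 96.3 to 115 RPM and the striated muscle miR-1-3p at 96.7 to 119 RPM. The neural miR-9a-5p stood at 31.6 to 43.6 RPM and the epithelial miR-200c-3p at 3.20 to 5.79 RPM. The blood markers miR-451-5p, miR-142-3p and miR-223-3p, the liver miR-122-5p and the striated muscle miR-133a-3p were at 0 to 0.766 RPM. Markers miR-150-5p, miR-200a-3p, miR-200b-3p and miR-124-3p had no entry to match. The part of other cells in the results was not tested.

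Long tags made up the largest share of reads in the control library and a smaller share in each Ang II library. Members held 442117 reads in control, which is 3.07% of the library (95% Clopper-Pearson interval 3.06 to 3.08). They held 292662 reads at 1 h (2.23%, 2.22 to 2.24), 345564 at 3 h (2.40%, 2.40 to 2.41) and 350473 at 24 h (2.41%, 2.40 to 2.42). All intervals here cover counting error only, since amplified reads without molecular identifiers are not independent molecules. Per read of the library, the members were 0.726 times control at 1 h (0.723 to 0.730), 0.783 times at 3 h (0.780 to 0.787) and 0.785 times at 24 h (0.782 to 0.789). Short tags of 18 to 35 nt that share the first 18 nt with a member, which the choice of members did not use, were in sum 0.993, 1.03 and 1.12 times control; most of these short reads begin like miR-22-3p or miR-21-5p, the miRNAs with which 2 of the members begin. Short tags that share a start with the members of 36 to 41 nt, which exclude these 2, were 0.879, 0.566 and 0.691 times control. They summed to 35742, 31422, 20222 and 24696 RPM in control, 1 h, 3 h and 24 h. An rRNA family described below weighs on this sum, with short tags over all its starts at 25757, 21834, 10843 and 11144 RPM. The sum was not computed without that family. Short tags of 30 to 35 nt alone were 0.937, 0.411 and 0.600 times control.

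Summed over reads, the cropped tags of 42 nt differed less between libraries than the tags with an end. The 419 members of 42 nt stood at 11759, 10420, 10087 and 11186 RPM in control, 1 h, 3 h and 24 h, or 0.886, 0.858 and 0.951 times control. The 585 members of 36 to 41 nt stood at 18953, 11888, 13960 and 12927 RPM, or 0.627, 0.737 and 0.682 times control. Cropped tags were thus 38.3% of member reads in control and 46.7%, 41.95% and 46.4% in the Ang II libraries. By length, the members summed to 2 peaks, one at 38 nt with 7197 RPM in control and one at 41 nt with 8591 RPM, against 585 to 996 RPM at 36, 37, 39 and 40 nt. At both lengths the most read tag was of the largest family, and these 2 tags held 60.4% of the member reads of 38 nt and 49.6% of those of 41 nt. That family, described below, was below control in each Ang II library, so it weighs on the sums of 36 to 41 nt. Those sums were not computed without it. By the calls described next, 39.7%, 33.7% and 23.1% of tested 42-nt tags were lower at 1 h, 3 h and 24 h. For tags of 36 to 41 nt these shares were 35.1%, 33.1% and 28.4%, and for all tags 16.7%, 23% and 23.2%.

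**Figure D1:**
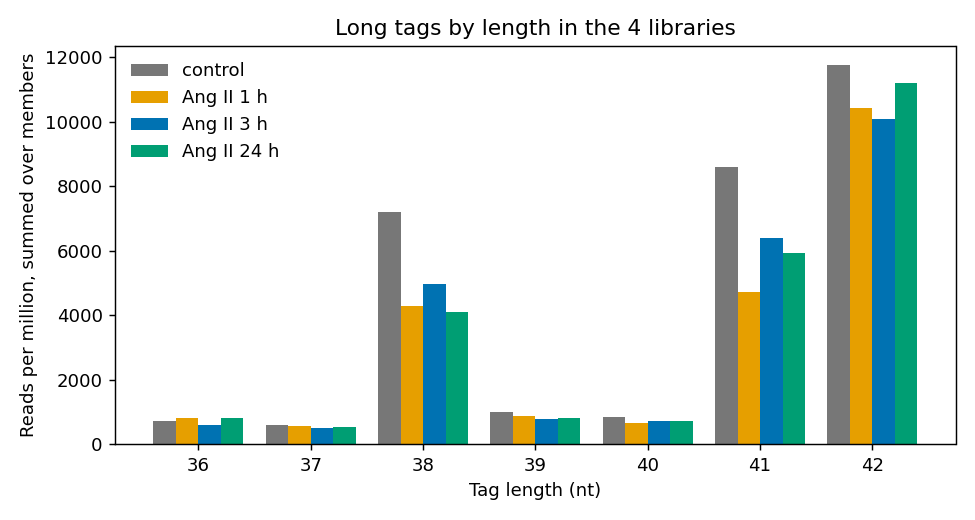
RPM (vertical axis) summed over the members of each tag length in nt (horizontal axis), 1 bar per library. The peaks at 38 and 41 nt were highest in control, at 7197 and 8591 RPM, and the cropped 42-nt tags were close to each other, from 10087 to 11759 RPM.

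Counted tag by tag, more long tags were lower than higher than control at every time. A tag was called higher or lower here when its (RPM + 1) ratio to control was 1.5 or more, or its inverse, with 100 or more reads in the higher of both libraries. At 1 h, 18 of 469 long tags that met the read limit were higher, beside 4.59% of all tags of any length, and 174 were lower, beside 16.7%. At 3 h, 24 of 480 were higher, beside 5.48% of all tags, and 160 were lower, beside 23%. At 24 h, 51 of 510 were higher, beside 13% of all tags, and 133 were lower, beside 23.2%. These counts describe the libraries that chose the members, and nothing is read from them about the long tags as a class. The median log2 ratio of the members that met the limit was -0.43, -0.37 and -0.23, beside -0.16, -0.18 and -0.20 over all tags. With TMM factors in place of totals, which moved log2 ratios without the added 1 RPM by 0.17, 0.20 and 0.22, the members' medians were -0.28, -0.19 and -0.03 and the counts were 29 higher and 113 lower at 1 h, 36 and 102 at 3 h, and 76 and 85 at 24 h. The share of the calls that were higher thus went from 9.38% to 20.4%, from 13% to 26.1% and from 27.7% to 47.2%. Counts over tags also count sequence variants of a few abundant RNAs many times, so the families are described next.

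Groups by the first 18 nt were ranked by their (RPM + 1) ratio among those with 100 or more reads in the higher of both libraries, and the highest and lowest came from few RNAs. At 1 h the lowest 3 were the other strand of 28S rRNA, described below, and 2 variants of the largest family, with 313, 77, 159 and 118 reads and with 738, 224, 357 and 355. At 24 h the lowest 3 were the same strand and 2 other variants of that family, with 212, 71, 107 and 67 reads and with 239, 106, 138 and 85. At 24 h the highest 3 were all of inner part a of 28S rRNA, with 9, 3, 15 and 420 reads, 15, 3, 9 and 354, and 81, 11, 59 and 974.

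The largest class of families carried the box C letters. In 74 of the 164 families the most read tag held TGATG starting at letters 4 to 10, and it started at letter 6 in 45 and at letter 7 in 27 of them. The longer form TGATGA was present there in 56 of the 164. After the box, CTGA, the letters of the core of box D, followed in 50 of the 74. Counted by tags that hold TGATG at that place, CTGA followed in 73.2% of members and in 53.6% of tags of 36 to 42 nt under 50 reads. Among such tags of 18 to 35 nt it followed in 30.1%. Many tags are cropped, so a CTGA in them need not lie near the 3′ end of the RNA. Counted by distinct tags and not by families, TGATG at that place was present in 38.3% of the members. It was present in 14.8% of the 421621 tags of 36 to 42 nt that fell short of 50 reads and in 3.47% of tags of 18 to 35 nt. In the RefSeq promoter windows cut into pieces of 42 nt it was present in 0.665%. These motifs were searched on the read strand only, they may overlap each other, and a match is a description of the letters and no proof of a box C/D RNA. The 74 families held 411 members and 55.7% of all member reads. Their tags of 36 to 42 nt outnumbered the shorter tags of the same start, with 85.5% of the reads of those starts in long tags, against 29.3% for rRNA, 6.56% for tRNA and 56.0% for mitochondrial RNA.

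The largest family alone held 33.5% of member reads. It had 145 members, 13 starts and 180528, 83044, 122432 and 92625 reads in control, 1 h, 3 h and 24 h, which is 12541, 6330, 8520 and 6373 RPM. It was thus 0.505 times control at 1 h (0.501 to 0.509), 0.679 times at 3 h (0.675 to 0.684) and 0.508 times at 24 h (0.504 to 0.512), and control was the highest of the 4 libraries. Short tags of the same starts were 0.647, 0.973 and 0.512 times control, so that they were near control at 3 h only. Of the members, 130 of 145 were 1 letter away from a tag of the same length with at least 5 times their reads. Its 2 leading tags are the 38-nt form printed above and a 41-nt form with 3 more letters in capitals:
41-nt form: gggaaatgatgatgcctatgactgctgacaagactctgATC
The 38-nt form had 65518, 31277, 44724 and 34206 reads and the 41-nt form 69457, 29255, 45121 and 36463 in control, 1 h, 3 h and 24 h. The forms were near equal in each library, and control was the highest of both. ATC are also the first 3 letters of the 3′ adapter. They ended 52.7% of all reads of 41 nt, 6.25% of those of 40 nt and 0 of the 969680 reads of 42 nt; 46 of the 47 members of 41 nt with that end belonged to this family. Whether the 3 letters are RNA or adapter cannot be told apart from these reads.

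The other 73 box C families together stood lowest at 1 h and highest at 24 h. With 1 library a time, the difference from the largest family was not tested. Among the 73, the most read tag of family 135 is a 1-letter variant of the largest family. They stood at 6189, 4436, 5331 and 6469 RPM in the same order, or 0.717 (0.709 to 0.724), 0.861 (0.853 to 0.870) and 1.05 (1.04 to 1.06) times control. At 1 h, all 52 box C families with 100 reads or more, the largest one included, were below control, with (RPM + 1) ratios from 0.451 to 0.963. At 3 h, 48 of 52 were below control and these ratios ran from 0.551 to 1.21. At 24 h, 21 of 56 were below control and these ratios ran from 0.508 to 1.60. The median log2 ratios were -0.57, -0.28 and 0.11 with library totals as the scale. Over all tags of any length with 100 or more reads the medians were also below 0, at -0.16, -0.18 and -0.20. TMM factors would move log2 ratios up by 0.17, 0.20 and 0.22, so the counts of families below control depend on the scale. The share of all tags below control was not computed. Family 4 stood at 1008, 903, 1067 and 1164 RPM, lowest at 1 h and highest at 24 h. Family 16 stood at 276, 133, 188 and 349 RPM, lowest at 1 h and highest at 24 h, with 96.8% of its reads cropped at 42 nt. Family 21, in plain RPM, was 0.448 times control at 1 h (0.416 to 0.483), with 2434, 994, 1534 and 2624 reads. Family 14, whose reads were all shorter than 42 nt, stood at 292, 261, 250 and 253 RPM, highest in control.

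Short tags of the same starts lay nearer to control than the long ones at 1 h. In the 33 box C families with 100 reads or more in both length classes at 1 h, the median log2 ratio was -0.61 for the long tags and -0.09 for the short ones, of which 21 of 33 were below control. At 3 h the medians were -0.32 and -0.03 over 35 families, and at 24 h 0.03 and -0.16 over 33. The long and short tags come from the same libraries, so the gap between them is a difference of length classes in each library; it was not tested, because each group is 1 library.

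**Figure D2:**
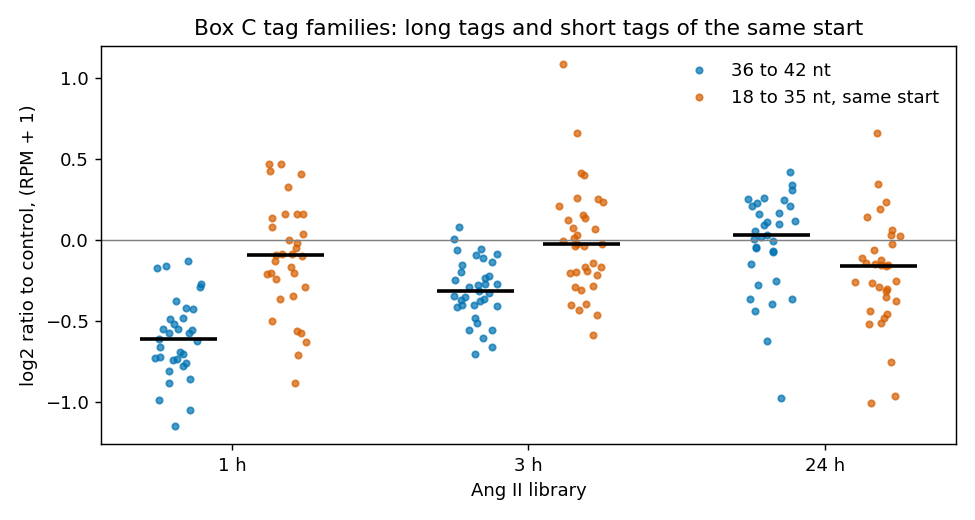
log2 ratio to control of (RPM + 1) on the vertical axis, by Ang II library, for box C families with 100 reads or more in both length classes. Blue points are tags of 36 to 42 nt and orange points tags of 18 to 35 nt of the same start; bars are medians. At 1 h the medians were -0.61 for long and -0.09 for short tags.

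Pieces of rRNA were the next largest class, with 23 families, 423 members and 38.5% of member reads, 77.4% of which were cropped at 42 nt. In sum they stood at 10300, 10132, 8955 and 9688 RPM, which hides pieces that went apart. The 3′ part of 5S rRNA, the small RNA of the large ribosomal subunit made by RNA polymerase III, differed little between libraries: 81728, 83198, 80526 and 81851 reads, or 5677, 6342, 5604 and 5631 RPM. It was 1.12 times control at 1 h (1.11 to 1.13), 0.987 times at 3 h and 0.992 times at 24 h. Its most read group by the first 18 nt was 1.21, 1.07 and 1.06 times control, and 1.35, 1.22 and 1.23 times with TMM factors. Its most read tag alone, printed above, had 47916, 51479, 50421 and 51175 reads. The 4 counts lie close together.

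With library totals as the scale, the 2 families from the 3′ end of 28S rRNA, the large RNA of the 60S subunit, were highest in control. The one near the 3′ end stood at 1515, 1431, 1026 and 1094 RPM, and was 0.944, 0.677 and 0.722 times control. These values include cropped tags that hold the adapter letters TCGTATGCC at or near their 3′ end. Among them are variants with 67, 44, 56 and 67 reads and with 85, 48, 41 and 53 in control, 1 h, 3 h and 24 h. Tags that end in fewer of these letters were not searched for. The one at the 3′ end stood at 1171, 751, 878 and 809 RPM, and was 0.641, 0.750 and 0.691 times control. Together the 110 members were 0.812 times control at 1 h, 0.709 times at 3 h and 0.708 times at 24 h. With library totals control was thus the highest of the 4 libraries for both. TMM factors would move log2 ratios up by 0.17 at 1 h, so this order depends on the scale for the family near the 3′ end.

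Inner parts of 28S rRNA were highest at 24 h. The 49 members of 9 families stood at 128, 88.5, 91.9 and 427 RPM in control, 1 h, 3 h and 24 h, or 3.34 times control at 24 h (3.17 to 3.53). Inner part a, printed above, had 234, 55, 211 and 3085 reads, which is 0.258 times control at 1 h (0.189 to 0.347), 0.903 times at 3 h (0.746 to 1.09) and 13.1 times at 24 h (11.4 to 14.98). The 1 h library was the lowest and the 24 h library the highest by far. Short tags of the same starts stood at 74.4, 35.2, 97.6 and 329 RPM, low at 1 h and high at 24 h too, 4.42 times control at 24 h (4.14 to 4.73). Inner part e had 93, 45, 68 and 928 reads and was 9.88 times control at 24 h (7.98 to 12.4), with short tags at 4.92 times. Inner part d had 260, 143, 168 and 645 reads and was 2.46 times control at 24 h, with short tags at 3.51 times. The 5′ end of 28S rRNA had 1049, 716, 589 and 1963 reads, 1.85 times control at 24 h, with short tags at 1.80 times. Inner part i had 1, 9, 2 and 137 reads, and its ratio of 135.7 at 24 h has a counting interval from 23.95 to 5398. Parts c and g were 1.45 and 1.75 times control at 24 h, while their short tags were 1.01 and 1.00 times. Parts b, f and h did not stand higher at 24 h, at 1.00, 0.742 and 0.728 times control.

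One family held the letters of the other strand of 28S rRNA. It had 139, 34, 84 and 28 reads, 0.268 times control at 1 h and 0.200 times at 24 h (0.128 to 0.301). Reads of the sense strand at the same place were 477, 287, 247 and 412.
Other strand: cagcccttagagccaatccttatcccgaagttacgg

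The 5.8S rRNA, which pairs with 28S in the large subunit, gave 3 families that did not share a time course. Its 5′ part had 7585, 6279, 2093 and 6454 reads, or 527, 479, 146 and 444 RPM, and the 3 h library stood apart at 0.276 times control (0.263 to 0.290). Short tags of the same starts, far more abundant at 25757, 21834, 10843 and 11144 RPM, were low at 3 h and at 24 h, 0.421 and 0.433 times control. The long tags were only 2.25% of the reads of these starts. Its 3′ part stood at 510, 285, 343 and 493 RPM, lowest at 1 h with 0.560 times control (0.538 to 0.582).

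The third 5.8S family joins letters that lie apart in the RNA. Its tags begin like the 5′ part and go on with letters of the middle, and both intact forms hold the same 4 letters, TAGC, in capitals, at the place where they meet.
5.8S joined: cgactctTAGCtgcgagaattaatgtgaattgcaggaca
5.8S intact, 5′ part: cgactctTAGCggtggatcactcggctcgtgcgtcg
5.8S intact, middle: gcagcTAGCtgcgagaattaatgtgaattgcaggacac
Reads of any length that hold the 16 letters across the joint numbered 8587, 8661, 12683 and 9165, or 597, 660, 883 and 631 RPM. Reads across the same place of the intact 5′ form stood at 26942, 22885, 10787 and 12507 RPM, and those across the intact middle form at 48.0, 30.4, 41.5 and 39.1 RPM. Reads across the joint were thus more frequent than reads across the intact middle form in each library. They were highest at 3 h, where reads across the intact 5′ form were lowest. These are counts of pieces short enough to be read, and they do not give the amount of whole 5.8S rRNA. The joined family of 29 members stood at 447, 483, 639 and 458 RPM, 1.43 times control at 3 h (1.38 to 1.48). Its starts included 2 of the 3 groups with the highest log2 ratios at 3 h, at 0.74 and 0.73, with 102, 86, 180 and 134 reads and with 66, 64, 119 and 82 reads. How the joined form arose was not tested.

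Pieces of 18S rRNA, the RNA of the small subunit, were few. The 18S 3′ end had 467, 564, 445 and 293 reads, and its largest group, with 346, 494, 330 and 231 reads, came after those of miR-31 and of an untold tag by ratio at 1 h (log2 ratio 0.63). The 18S 5′ end had 954, 686, 603 and 644 reads and the largest inner part 1368, 1041, 1087 and 1250.

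**Figure D3:**
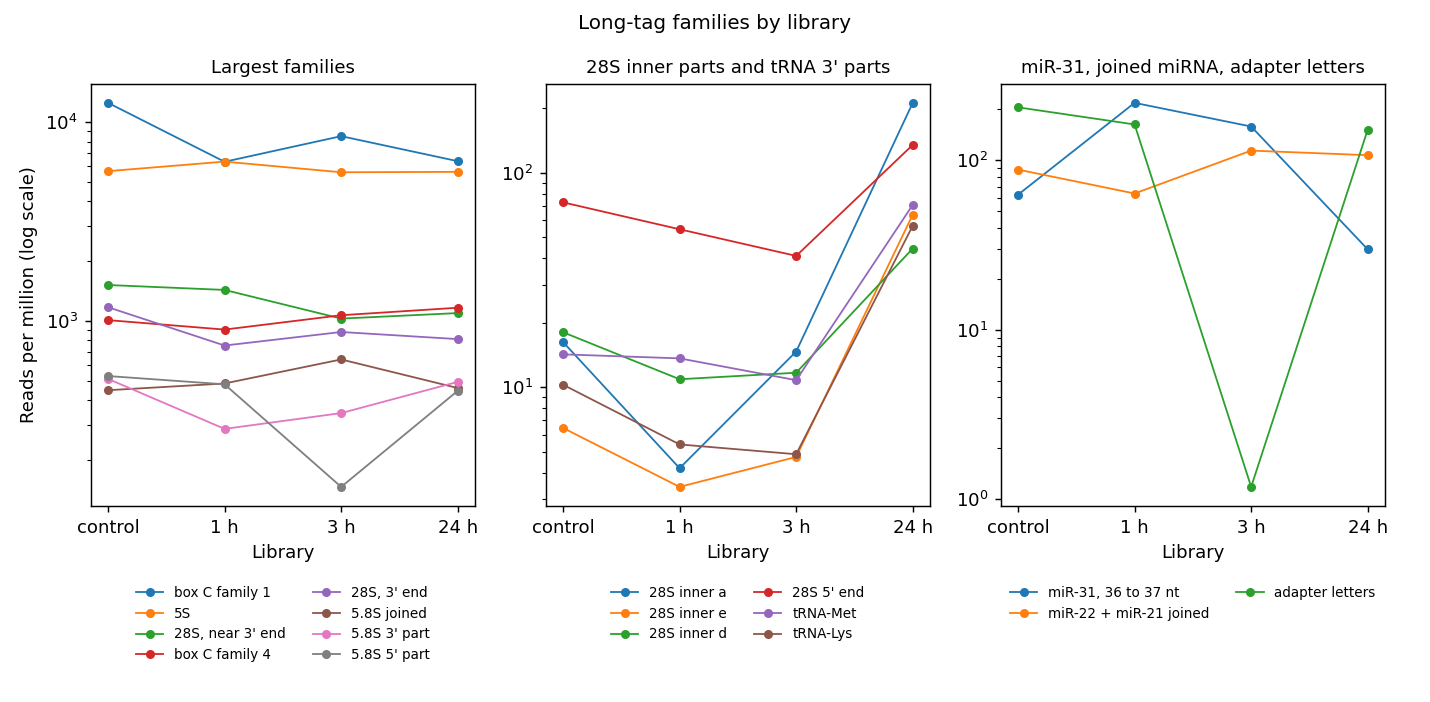
RPM on a log axis by library, for the 8 largest families, for 3 inner parts and the 5′ end of 28S rRNA with 2 tRNA 3′ parts, and for the miR-31, joined miRNA and adapter families. The pieces in the middle panel were highest at 24 h, while miR-31 long tags were highest at 1 h, at 218 RPM, and lowest at 24 h, at 29.8 RPM.

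Pieces of tRNA, the adaptors of translation, were 18 families with 32 members, and they were highest at 24 h in sum: 137, 108, 95.2 and 293 RPM, or 2.14 times control (2.02 to 2.25). Their short tags were 2.61 times control at 24 h. The 5′ part of tRNA-Lys went the other way: it had 201, 149, 175 and 78 reads and was 0.384 times control at 24 h. The 13 tags of 36 nt from tRNA 3′ parts had 403, 244, 237 and 2488 reads, 0.664, 0.589 and 6.12 times control (5.50 to 6.81 at 24 h). The 24 h library stood apart from the other 3. Several of these tags reached the read limit for members at 24 h only, so this ratio partly reflects that choice. Among them, a form of tRNA-Met 3′ part a had 5, 2, 1 and 58 reads. Short tags of the same starts, whose counts the choice did not use, were 0.640, 0.387 and 2.60 times control. tRNA-Met 3′ part a had 205, 179, 155 and 1031 reads, 4.98 times control at 24 h (4.28 to 5.82), with short tags of the same start at 9.86, 8.003, 4.52 and 109.8 RPM. The most read tRNA-Lys 3′ tag had 148, 71, 70 and 824 reads, 5.51 times control at 24 h (4.62 to 6.61), with short tags at 3.95 times.

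Most of these 3′ tags came in forms that differed in 1 letter, and several of these forms count above as families of their own. Their letters 16 to 18 are TTC, of the T loop, and letter 20, in capitals, is an A in the textbook sequence of these tRNAs; this A of the T loop carries a methyl group in many tRNAs. Positions are counted from 1 at the 5′ end of the tag.
tRNA-Lys, letter G: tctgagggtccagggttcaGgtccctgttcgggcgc
tRNA-Lys, letter T: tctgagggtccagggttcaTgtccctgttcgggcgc
tRNA-Met a, letter T: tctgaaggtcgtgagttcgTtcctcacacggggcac
tRNA-Met a, letter G: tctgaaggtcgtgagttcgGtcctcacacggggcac
For the tRNA-Lys tag, A20G made up 75.9%, 73.2%, 72.9% and 74.4% of the reads that differ at this letter only, A20T 19%, 21.6%, 21.9% and 21.7%, and the unchanged A 4.10%, 5.15%, 3.12% and 3.25% in control, 1 h, 3 h and 24 h. For tRNA-Met a, A20T made up 87.0%, 87.5%, 95.5% and 87.1%; these shares rest on 47, 42, 21 and 566 reads. In these 2 tags the shares at 24 h were close to those in control, while the reads of tRNA-Lys with G went from 148 in control to 824. In 3 other tags, with far fewer reads in control, they were not close. In tRNA-Met b A20T was 37.5% of reads in control and 59.2% at 24 h, and in its other form 66.7% and 36.6%. In a tRNA of untold isotype A20G was 16.7% and 48.6%; the control shares rest on 9, 18 and 2 reads. A gene copy with another letter and a change made during reverse transcription cannot be told apart here, and neither was tested.

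Mitochondrial RNA gave 8 families with 18 members at 141, 108, 119 and 151 RPM. Mitochondrial tRNA-Met had 101, 77, 88 and 353 reads and was 3.46 times control at 24 h (2.77 to 4.36), while its short tags were 1.01 times control. The 5′ end of the 12S rRNA had 767, 509, 654 and 718 reads. Among other small RNAs, a tag of 7SL RNA, the RNA of the signal recognition particle, had 54, 17, 12 and 138 reads, lowest at 3 h and highest at 24 h. A tag of U3 snoRNA, which guides processing of the 18S precursor, had 118, 113, 108 and 128 reads, close in all libraries.

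The only miRNA hairpin among the members was that of miR-31, a miRNA expressed in smooth muscle. Mature miR-31a-5p is given from RefSeq with its seed, bases 2 to 8, in capitals; it lies on chromosome 5 of GRCr8, minus strand, chr5:108714906-108714927. The long tag begins with the same letters and goes on through the loop of the hairpin, in capitals.
rno-miR-31a-5p: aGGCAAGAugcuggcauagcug
miR-31 long tag: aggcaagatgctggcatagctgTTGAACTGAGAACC
In the RefSeq hairpin of 106 letters, the mature 5p sequence covers letters 28 to 49 and the 3p sequence starts at letter 64. The long tag covers letters 28 to 63, so it ends at the letter before the 3p sequence. It had 626, 1974, 1599 and 312 reads in control, 1 h, 3 h and 24 h, and a 37-nt form with 1 more letter had 80, 206, 189 and 32. Both were high at 1 h and 3 h and lowest at 24 h. With their variants, the 9 members had 901, 2861, 2272 and 433 reads, or 3.48 times control at 1 h (3.23 to 3.76), 2.53 times at 3 h (2.34 to 2.73) and 0.476 times at 24 h (0.423 to 0.534). This group had the second highest ratio of all groups at 1 h and the highest at 3 h.

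Tags of mature length from the same start differed little. Tags of 18 to 24 nt that begin with the first 18 letters of miR-31a-5p stood at 431, 396, 445 and 420 RPM in control, 1 h, 3 h and 24 h, or 0.919 (0.885 to 0.953), 1.03 (0.997 to 1.07) and 0.975 (0.941 to 1.01) times control. Tags of 25 to 29 nt stood at 52.2, 45.4, 39.5 and 20.2 RPM. Those of 30 to 35 nt went with the long tags, at 3.68, 12.3, 11.6 and 1.38 RPM, 3.33 times control at 1 h (2.43 to 4.64). These length classes were not used to choose the members. The reads of 36 to 42 nt were 1256, 3939, 2991 and 568, against 6210, 5198, 6400 and 6110 of 18 to 24 nt.

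**Figure D4:**
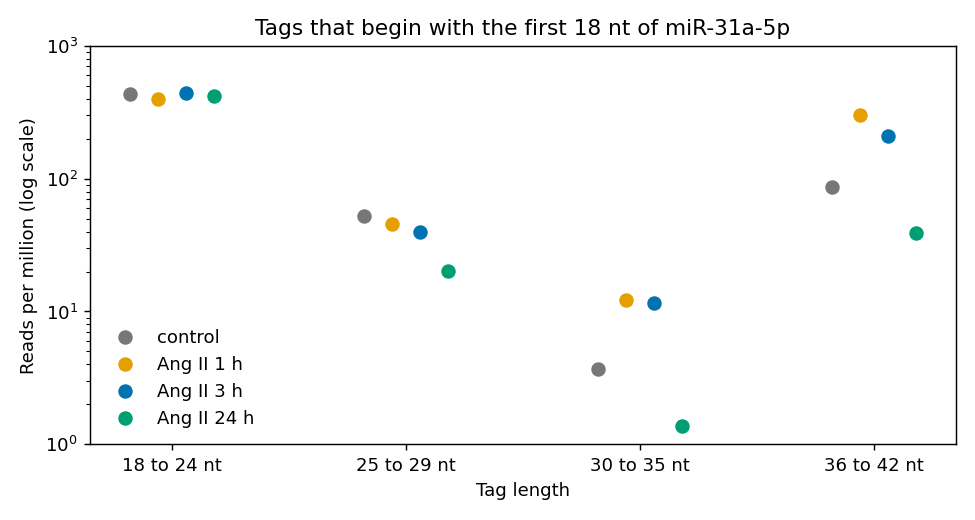
RPM on a log axis for tags that begin with the first 18 letters of miR-31a-5p, by tag length, 1 point per library. Tags of 18 to 24 nt sit between 396 and 445 RPM in all libraries, while those of 36 to 42 nt run from 39.1 RPM at 24 h to 300 RPM at 1 h.

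A pair of cropped members read as 2 miRNAs end to end. The first is miR-22-3p followed with 0 letters between by the first 20 letters of miR-21-5p, in capitals, where the read ends; the second is miR-21-5p followed by itself.
miR-22-3p and miR-21-5p: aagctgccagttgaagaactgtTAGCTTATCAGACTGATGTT
miR-21-5p and miR-21-5p: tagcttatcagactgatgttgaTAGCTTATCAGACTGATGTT
The first had 1236, 799, 1578 and 1489 reads and the second 32, 36, 60 and 67. Mature miR-22-3p lies at chr10:60805387-60805408 on the plus strand and miR-21-5p at chr10:71902653-71902674 on the minus strand of GRCr8, so the 2 do not follow each other in the genome. Short tags that begin like the 2 joined tags stood at 117175 to 146676 RPM, so the joined reads are 0.0716% of the reads of these starts. How they were joined was not tested.

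The remaining 32 families, with 79 members and 3.25% of member reads, were given no source. In 7 of them the most read tag began with the last 11 to 18 letters of the most read tag of a box C family, out of a search for 10 or more shared letters made after the data were seen. They stood at 1022, 726, 731 and 813 RPM. One 42-nt tag among them had 0, 147, 34 and 0 reads in that order, and it gave the highest log2 ratio of all groups at 1 h, 3.61, a value that depends on the 1 RPM added to both sides. The family of adapter letters with a run of A, 24 members, had 2954, 2133, 17 and 2203 reads, so the 3 h library was nearly empty of it, at 0.00577 times control. Its shorter tags of the same start were not low there, at 1197, 841, 1566 and 946 RPM. The 3 groups with the lowest ratios at 3 h were all of this family, with 1823, 1368, 5 and 1293 reads in the largest. Without the tags of adapter letters, 151 and not 160 long tags were lower at 3 h.

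Many members were near copies of others. In all, 389 of the 1004 were 1 letter away from a member of the same length with 5 or more times their reads, and they held 16.2% of member reads. The parent letter was A and the variant letter C in 193 of them, and G was replaced by T in 91. Of the 389, 268 had the change in the last 12 letters of the tag, 43 in the first 18, and 214 belonged to the largest family and the 5S family. The most read one, A30C in the 38-nt form of the largest family, had 4017, 2364, 2687 and 1899 reads, which is 6.13%, 7.56%, 6.01% and 5.55% of its parent. Changes at letter 24 were found mostly in the control library: 9 variants had 1397 reads there and 94, 123 and 119 in the Ang II libraries. They lay in the largest family, in 5S and in 28S rRNA. Of the 9, A24C in 28S rRNA was not higher in control, with 56, 38, 38 and 58 reads.

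A few members were almost confined to 1 library, with 90% or more of their summed RPM in it. There were 3 such tags in control, 0 in the 1 h library, 11 in the 3 h library and 10 in the 24 h library. The share of such tags among all tags was not computed. These tags became members mainly through the library where they are high, so the counts describe that choice too. The 3 in control were variants at letter 24. The 11 at 3 h held 18, 12, 2449 and 21 reads; 5 were 42-nt tags ending in AT and had 775 reads at 3 h and 0 elsewhere, and the most read one was a 40-nt tag of family 4 with 11, 7, 1058 and 13 reads, whose 41-nt form had 4288, 3703, 4975 and 5779. The 10 at 24 h, with 76, 22, 66 and 1975 reads, were all of the inner parts a, e and i of 28S rRNA.

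Of the members, 163 had 50 to 59 reads in their highest library, and 259 more tags of 36 to 42 nt had 40 to 49. The 5 just inside had 50 reads in 1 library each and 0 to 37 in the others, and the 5 just outside had 49 reads in control and 24 to 43 in the others. All tags of 36 to 42 nt without the limit were 4.75%, 3.57%, 3.54% and 3.88% of reads in control, 1 h, 3 h and 24 h.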

How the data were processed

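Small RNA of 17 to 52 nt from 4 libraries (0.5 μg total RNA, 12 PCR cycles) was read by a Genome Analyzer IIx instrument, as the labels' protocols state. The deposited files give the authors' count of reads per distinct tag. The settings of adapter trimming are not given in the sources used here. Novoalign and the build rn4 are named in the submitters' processing notes. A row labelled QC (5.13% to 7.07% of each file) names no sequence and was left out. Tags were scaled to RPM of their own library. Families were built with Python 3.11.15, intervals with scipy 1.17.1 (exact conditional binomial for ratios), and TMM factors with edgeR 4.0.16. The call rule was also run on simulated counts with counting error only, and with larger changes and more abundant tags than the rule requires. That run cannot show how many of the calls given here would recur in a second library. Named tags and groups were the 12 largest groups, the 8 most read tags of 36 to 41 and of 42 nt, the 3 highest and 3 lowest groups at each time, 5 tags on each side of the read limit, and miRNA hairpins; others were chosen after their values were seen. The members, lists and alternatives were chosen with earlier results of these data known.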

Additional observations from a re-analysis of the deposited data

Results flagged for a closer look

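In 5 families the (RPM + 1) ratio to control was 1.5 or more at 1 time and its inverse or less at another, with 100 or more reads in the higher of both libraries. The values given are plain RPM ratios. With 1 library a time, none of these differences was tested. The miR-31 long tags were 3.484 times control at 1 h and 2.526 times at 3 h, and 0.476 times at 24 h. The 5′ end of 28S rRNA was 0.5625 times control at 3 h and 1.853 times at 24 h. Inner part a of 28S rRNA was 0.2579 times control at 1 h and 13.06 times at 24 h. Inner part d was 0.6035, 0.6473 and 2.457 times control at 1 h, 3 h and 24 h. The tRNA-Lys 3′ tag was 0.5264, 0.4738 and 5.514 times.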

How the results depend on the processing

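No paired analysis was possible because each group is 1 library and the groups share a single replicate number. Among the counts of calls, the shares of reads, the sums of short tags and the hairpin matches, 72 recomputed values moved beyond their limit and 2 turned. Another 56 ratios of single starts and of miR-31 also moved, some of them across 1 (the start ranked 3 by reads at 1 h, from 0.994 to 1.12 with TMM factors). Counts are given as long tags higher and lower than control at 1 h, 3 h and 24 h. With TMM factors there were 29 and 113, 36 and 102, and 76 and 85, and with median-of-ratios factors 28 and 117, 34 and 107, and 73 and 88. With 50 reads as the limit there were 39 and 293, 57 and 290, and 106 and 244, and with 200 reads 9 and 102, 12 and 82, and 22 and 71. Adding 10 RPM gave 7 and 68, 13 and 74, and 27 and 55, and a 2-fold limit 7 and 42, 10 and 65, and 28 and 58. Sums by the first 18 nt gave 3 and 77, 3 and 62, and 35 and 35. Tags of 36 to 41 nt gave 11 and 93, 17 and 90, and 32 and 82, and those of 42 nt 7 and 81, 7 and 70, and 19 and 51; these hold fewer tags. Without mismatch variants there were 7 and 108, 18 and 108, and 44 and 62, and without the largest family 18 and 120, 22 and 124, and 51 and 72; both were chosen after the data were seen. Against the 1 h library there were 48 and 63 at 3 h, and 129 and 46 at 24 h. Lower tags outnumbered higher ones in all of these except sums by start at 24 h and the 1 h reference at 24 h. The share of reads in control, 1 h, 3 h and 24 h was 4.75%, 3.57%, 3.54% and 3.88% with no read limit, 2.69%, 1.94%, 2.12% and 2.08% with 200 reads, 2.85%, 2.10%, 2.28% and 2.26% with the row labelled QC in the total, and 1.85%, 1.61%, 1.58% and 1.79% without the most read start. Control had the highest share in each. Short tags of 30 to 35 nt were 0.937, 0.411 and 0.600 times control, against 0.993, 1.03 and 1.12 for 18 to 35 nt, so the last 2 turned. With 1 mismatch allowed, 9 and not 2 members lay in a miRNA hairpin. Where construction does not show it, the cause was not tested. A count of 0 allows 0.206 to 0.229 RPM, and no setting replaces a second library per group.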
